A study of Mus musculus with 8 samples.

Results

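Cnn3, Nampt and Ppa1 are 3 genes, less often named among targets of interferon gamma (IFN-γ), that read higher with this cytokine in spleen dendritic cells. They were chosen by name, with their response to IFN-γ in these same arrays known, and each has 1 probe set among the 12422 tested, which carry 8251 distinct gene names. Their IFN-γ differences at both times are therefore given as a description, with no test. What was tested is their change with time in culture, which shares arrays with those comparisons, and the other genes of their pathways.

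CD8+ dendritic cells, a spleen subset that presents antigen to T cells, came from female DBA/2J mice aged 60 days that had received 10 µg of Flt3-L, a growth factor that expands dendritic cells, for 9 days. This treatment was common to all groups. There were 4 groups of 2 arrays: cells with 200 U/ml of mouse IFN-γ for 4 hours, the same for 16 hours, medium alone for 4 hours and medium alone for 16 hours. Total RNA was measured on Affymetrix mouse arrays, and the labels do not say whether the 2 RNA samples of a group had different mice or cultures as their source. The p-values therefore measure only the spread between arrays, which may be technical.

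IFN-γ acts through its receptor and the JAK kinases, and its target genes often carry GAS elements or interferon-stimulated response elements, the second bound by factors such as IRF1. Nampt, nicotinamide phosphoribosyltransferase, is the rate-limiting enzyme that salvages nicotinamide to NAD, the cofactor consumed by sirtuins, PARP enzymes and CD38, and it releases pyrophosphate. Ppa1, the cytosolic inorganic pyrophosphatase, splits pyrophosphate to phosphate, which draws forward the reactions that release it, among them the charging of tRNAs. Cnn3, the acidic calponin, is an actin-binding protein known from smooth muscle and other contractile cells, where it bears on stress fibres and cell contraction.

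The promoters of the 3 genes are shown because these genes read high together under IFN-γ, so that the elements in them can be compared. The windows are from RefSeq on GRCm38.p6, the plus strand in each case, and span 250 bases before to 50 bases after the transcription start: chr3:121426291-121426590 for Cnn3, chr12:32820085-32820384 for Nampt and chr10:61648371-61648670 for Ppa1. Capitals mark every match, on either strand, to the 6 motifs searched.
Cnn3: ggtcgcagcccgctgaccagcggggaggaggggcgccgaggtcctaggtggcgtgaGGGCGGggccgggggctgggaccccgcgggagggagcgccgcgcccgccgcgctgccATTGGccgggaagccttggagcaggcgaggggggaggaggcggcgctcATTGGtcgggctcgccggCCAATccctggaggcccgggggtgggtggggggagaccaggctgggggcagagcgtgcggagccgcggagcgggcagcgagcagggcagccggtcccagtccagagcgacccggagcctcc
Nampt: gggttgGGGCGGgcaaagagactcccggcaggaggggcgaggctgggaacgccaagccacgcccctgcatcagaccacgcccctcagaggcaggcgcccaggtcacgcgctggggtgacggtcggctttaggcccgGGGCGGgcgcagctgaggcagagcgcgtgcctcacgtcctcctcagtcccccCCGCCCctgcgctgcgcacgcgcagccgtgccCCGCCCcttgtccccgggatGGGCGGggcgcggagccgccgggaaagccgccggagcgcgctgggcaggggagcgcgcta
Ppa1: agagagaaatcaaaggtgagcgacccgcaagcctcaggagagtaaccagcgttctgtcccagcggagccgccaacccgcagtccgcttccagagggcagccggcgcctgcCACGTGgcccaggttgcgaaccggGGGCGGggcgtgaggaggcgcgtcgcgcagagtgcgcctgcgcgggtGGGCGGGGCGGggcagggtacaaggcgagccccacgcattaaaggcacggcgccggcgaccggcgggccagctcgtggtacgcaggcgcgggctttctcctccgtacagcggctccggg
The motifs were the GAS element TTCNNNGAA, the interferon-stimulated response element (GAAA, any 2 bases, GAAA), the GC box GGGCGG, the CCAAT box CCAAT, the E-box CACGTG and the TATA element TATAAA. These motifs were chosen with the sequences seen. Neither the GAS element nor the interferon-stimulated response element occurs in any of the 3 windows. Over all 32851 mouse promoter windows of this length, 8.30% hold the first and 3.44% the second. GGGCGG occurs once in Cnn3, 5 times in Nampt and 3 times in Ppa1, where 2 of the matches overlap by 1 base, and 35.7% of all windows hold it. Cnn3 holds 3 CCAAT boxes, at -137, -89 and -71 from the start (37.4% of all windows hold this motif), and Ppa1 holds 1 E-box at -140 (7.15%). TATAAA is in none of the 3 windows and in 13.6% of all. The windows are rich in G and C, at 78.3% in Cnn3, 76.3% in Nampt and 71.7% in Ppa1, with 33, 36 and 38 CpG dinucleotides, against medians of 52.7% and 7 over all windows. A window of this length says nothing of elements elsewhere in a gene.

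The deposited values, processed with RMA, were alike in overall signal between arrays, which that processing can itself bring about. The median intensity of the arrays lay between 51.3 and 53.7. The median over 15 antisense controls, taken as the level of unspecific signal, was between 44.9 and 61.2. Single controls spread widely, with the lowest of an array at 16.7 to 25.3 and the highest at 128 to 238. The 2 arrays of a group had an r across all probe sets of 0.996 and 0.989 with IFN-γ at 4 and 16 hours, and 0.997 and 0.993 in medium. RNA degradation raises the 3' to 5' ratio of the Actb control probe sets, which was 1.47 and 1.65 with IFN-γ at 4 hours, 1.68 and 1.66 with IFN-γ at 16 hours, 2.04 and 2.20 in medium at 4 hours, and 1.63 and 1.57 in medium at 16 hours. Of 10 measured markers of CD8+ dendritic cells, 9 were above the antisense median on both arrays of every group, with Cd8a at mean intensities of 445 to 510 over the groups, while Xcr1, at group means of 44.2 to 55.4, was not. All 6 measured B cell markers were also above it in every group, and 7 of 8 of neutrophils and granulocytes. So were 3 of 4 markers of plasmacytoid dendritic cells in every group. Of 6 T cell markers, 6 were above it in both groups at 4 hours and 5 at 16 hours. The Actb ratio was thus lower with IFN-γ than in medium at 4 hours. At that time the intensities of the macrophage and monocyte markers summed to 1360 and 1360 with IFN-γ, against 1796 and 1829 in medium. Of these 12, 7 were above the antisense median with IFN-γ and 8 in medium. Lyz2 (group means of 410 with IFN-γ against 727 in medium) and Csf1r (159 against 264) were lower with IFN-γ. C1qa, C1qb, C1qc and Fcgr1 (94.3 against 69.6) were not. Sums were also lower for B cell (6524 and 6278 against 7267 and 6768), neutrophil and granulocyte, and erythroid markers. They were higher for CD8+ dendritic cell (4907 and 5163 against 4471 and 4683) and NK cell markers. Of 5 NK cell markers, 2 were above the antisense median with IFN-γ and 1 in medium. Among the dendritic cell markers, Irf8 differed most (group means of 1590 with IFN-γ against 1050 in medium). Cd8a, Ly75, Batf3, Id2 and Xcr1 were also higher. Flt3 (530 against 644), Cd24a (326 against 367), Itgax and Cadm1 were lower. The part of all these in the 4-hour differences was not tested. In bulk RNA, fewer cells of a type and less RNA per cell cannot be told apart.

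Cnn3 was higher with IFN-γ on every array, and close to the unspecific signal in medium. At 4 hours its intensity was 197 and 235 with IFN-γ, against 58.0 and 66.9 in medium. At 16 hours it was 124 and 173 with IFN-γ, against 43.0 and 51.7 in medium. Array 1 with IFN-γ at 16 hours lay below the highest single antisense control of that array (202). The IFN-γ arrays lay at 2.23 to 5.24 times the antisense median of the same array, while the medium arrays lay at 0.703 to 1.39 times it, so the size of the fold is uncertain. The fitted log2 difference was 1.79 (SE 0.18) at 4 hours, a 3.46-fold difference of geometric means, and 1.63 (SE 0.18) at 16 hours, 3.10-fold, with n = 2 per group. Between arrays of the same number, the fold was 3.40 and 3.52 at 4 hours and 2.88 and 3.34 at 16 hours. With log2 taken of intensity plus 32, which damps low values, the differences were 1.39 and 1.17. The suffix f of the Cnn3 probe set marks, in the array maker's naming, probes that may match a family of similar sequences, and which transcripts they match was not tested.

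Nampt was above the antisense median on every array, at 2.51 to 8.98 times it. In medium at 16 hours, both arrays lay below the highest single antisense control of the same array (238 and 200). The gene was higher with IFN-γ at both times. At 4 hours its intensity was 363 and 404 with IFN-γ, against 176 and 201 in medium. At 16 hours it was 282 and 345 with IFN-γ, against 153 and 196 in medium. All 4 IFN-γ arrays thus lay above all 4 medium arrays, whatever the time. The log2 difference was 1.02 (SE 0.16), 2.03-fold, at 4 hours and 0.85 (SE 0.16), 1.80-fold, at 16 hours. The fold between arrays of the same number was 2.06 and 2.01 at 4 hours and 1.84 and 1.77 at 16 hours.

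Ppa1 combined a higher level with IFN-γ at each time with a lower level at the later time. At 4 hours its intensity was 490 and 563 with IFN-γ, against 347 and 349 in medium. At 16 hours Ppa1 read 263 and 288 with IFN-γ, against 165 and 165 in medium. These medium readings lay below the highest single antisense control of the same array (238 and 200). The groups did not overlap at either time, but both 16-hour IFN-γ arrays lay below both 4-hour medium arrays, with a log2 difference of -0.34. The log2 difference between IFN-γ and medium was 0.59 (SE 0.11), 1.51-fold, at 4 hours and 0.74 (SE 0.11), 1.67-fold, at 16 hours. The medium replicates of this gene lay close together, with an SD of 1.77 at 4 hours and 0.523 at 16 hours in intensity, while the SD with IFN-γ was 52.1 and 17.6.

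**Figure D1:**
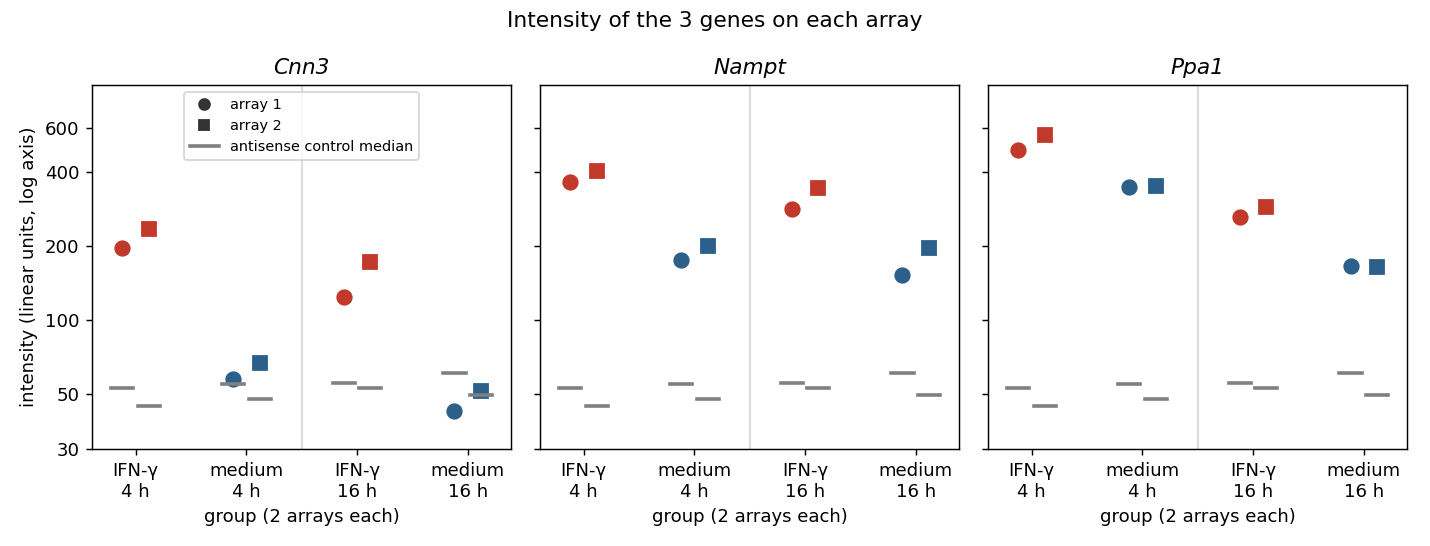
Intensity of Cnn3, Nampt and Ppa1 on each of the 8 arrays (log axis), with the IFN-γ groups in red and the medium groups in blue, circles for array 1 and squares for array 2 of a group, and grey bars for the antisense control median of the same array. The Cnn3 medium arrays lie at 43.0 to 66.9, near the grey bars, and Ppa1 is lower at 16 than at 4 hours in both conditions. Levels of different genes come from different probes and cannot be compared.

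Among all 12422 probe sets, the IFN-γ difference of Cnn3 ranked 10 from the top at 4 hours and 7 at 16 hours, that of Nampt 23 and 24, and that of Ppa1 96 and 31. With limma at an adjusted p under 0.05, the share called higher with the cytokine was 0.258% at 4 hours and 0.161% at 16 hours, and the share called lower 0% and 0.0966%. Blocked by replicate number, which compares arrays of the same number, 1.09% were higher and 0.177% lower at 4 hours, and 0.411% higher and 0.435% lower at 16 hours. The IFN-γ arrays of a time lay above the medium arrays of that time for 15.4% of probe sets at 4 hours and 9.10% at 16 hours. Both IFN-γ arrays lay above both medium arrays at both times for all 3 genes and for 2.06% of all probe sets. The genes were chosen on these comparisons, so nothing is read from these shares.

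For each of the 3 genes the interval of the change in IFN-γ effect between the times included 0. The effect at 16 minus that at 4 hours was -0.16 for Cnn3 (SE 0.25, 95% interval -0.73 to 0.41), -0.18 for Nampt (SE 0.22, -0.68 to 0.32) and 0.14 for Ppa1 (SE 0.16, -0.22 to 0.51) on the log2 scale. The value for Cnn3 was 0.08 without array 1 of IFN-γ at 16 hours and -0.40 without array 2. It is built from the comparisons that chose the genes and is given without a test.

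**Figure D2:**
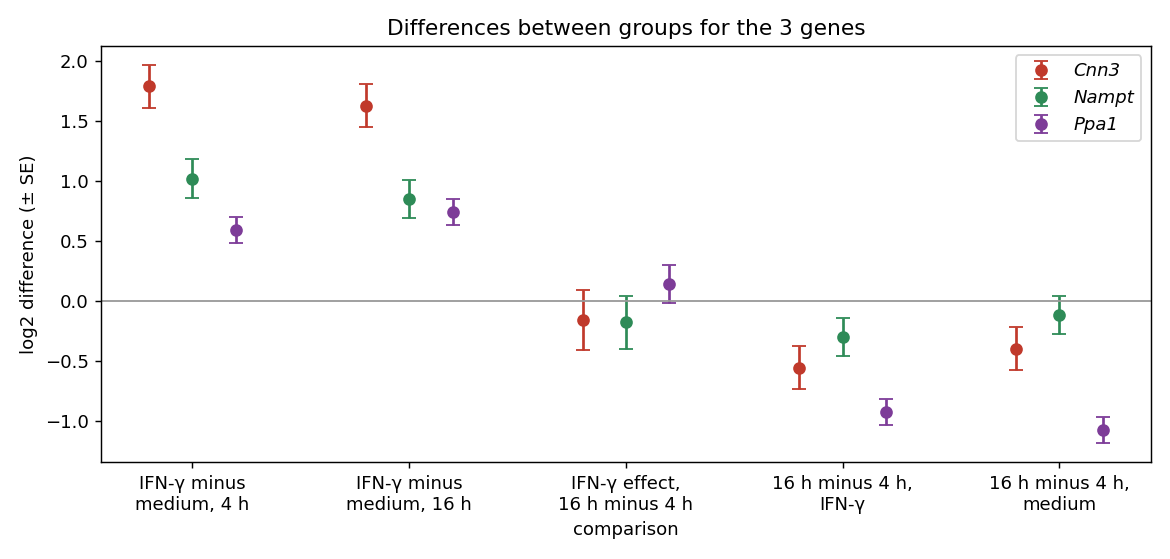
Log2 differences of Cnn3, Nampt and Ppa1 in the 5 comparisons, as points with bars of 1 SE from the fit over all 8 arrays. Ppa1 has the lowest values for 16 minus 4 hours, -0.93 with IFN-γ and -1.08 in medium, beside IFN-γ differences above 0 at both times.

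Ppa1 fell between 4 and 16 hours in both conditions, and was the only one of the 3 genes to pass this test. With IFN-γ, the 16-hour arrays read 263 and 288, against 490 and 563 at 4 hours, or -0.93 in log2 (SE 0.11, limma adjusted p = 0.00549). In medium they read 165 and 165, against 347 and 349, a log2 difference of -1.08 (SE 0.11, limma adjusted p = 0.0019). By the same test 1.30% of all probe sets were lower at 16 hours with IFN-γ, 2.57% in medium and 0.990% in both. Without array 2 of IFN-γ at 4 hours, the fall with IFN-γ was -0.83 and no longer passed (limma adjusted p = 0.0802, and 3.42e-05 to 0.0802 over all alternatives). The Actb 3' to 5' ratio was lower at 16 hours in medium, 1.63 and 1.57 against 2.04 and 2.20, but not with IFN-γ, 1.68 and 1.66 against 1.47 and 1.65. The summed intensity of 12 macrophage and monocyte markers, 8 of them above the antisense median at 16 hours, was higher then, 3351 and 4145 against 1360 and 1360 with IFN-γ, and 4588 and 5387 against 1796 and 1829 in medium, as was that of the B cell markers, 8078 and 8521 against 6524 and 6278 with IFN-γ, and 7818 and 7933 against 7267 and 6768 in medium. The sum of the CD8+ dendritic cell markers was lower at 16 hours, 3754 and 4414 against 4907 and 5163 with IFN-γ, and 3615 and 3847 against 4471 and 4683 in medium. Some members of these 3 lists went against the sum. Spic was lower at 16 hours, at group means of 20.2 against 54 with IFN-γ and 39.3 against 78.7 in medium. Cd79a (721 against 793) and Blk were lower in medium. Cd24a, Xcr1 and Cadm1 were higher in both conditions, and Itgax with IFN-γ. For 3 erythroid markers the sum was lower at 16 hours, 258 and 215 against 396 and 377 with IFN-γ, and 221 and 208 against 425 and 420 in medium. Only 1 of the 3 was above the antisense median on both arrays of each group. Hbb-b2 and Hba-a1 were lower, Hba-a1 at group means of 171 against 303 with IFN-γ and 154 against 340 in medium. Alas2 was not lower, at 52.5 against 48.6 with IFN-γ and 48.6 against 45.5 in medium. The part of all these in the time differences given here was not tested.

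Cnn3 and Nampt differed less with time and did not pass the test. Cnn3 differed by -0.56 with IFN-γ (SE 0.18, limma adjusted p = 0.173) and -0.40 in medium (SE 0.18, limma adjusted p = 0.311). Its 16-hour arrays lay below its 4-hour arrays in both conditions, as did those of 17.7% of all probe sets with IFN-γ and 20.8% in medium. With that block both differences passed (adjusted p = 0.00644 with IFN-γ and 0.0245 in medium by limma), where 6.94% and 8.09% of probe sets were lower. Over the alternatives the adjusted p of Cnn3 ran from 0.00644 to 0.74 with IFN-γ and from 0.0245 to 0.856 in medium. Nampt differed by -0.30 with IFN-γ (SE 0.16, 95% interval -0.65 to 0.06, limma adjusted p = 0.464) and by -0.12 in medium (SE 0.16, -0.47 to 0.23, limma adjusted p = 0.743), and its medium arrays at the 2 times overlapped. Without array 1 of medium at 16 hours, the value of Nampt in medium was 0.06.

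In order of level, Cnn3 and Nampt were highest with IFN-γ at 4 hours, then with IFN-γ at 16 hours, then in medium at 4 hours and lowest in medium at 16 hours. For Cnn3 the arrays of neighbouring groups did not overlap. For Nampt only the 2 medium groups overlapped. The order for Ppa1 was IFN-γ at 4 hours, medium at 4 hours, IFN-γ at 16 hours and medium at 16 hours, with no overlap between neighbours. Over the 8 arrays, log2 intensity correlated with r = 0.991 between Cnn3 and Nampt, 0.75 between Cnn3 and Ppa1 and 0.697 between Nampt and Ppa1. These genes were all read on the same 8 arrays. Array 2 read above array 1 in all 4 groups for Cnn3 and Nampt, as for 19% of probe sets.

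**Figure D3:**
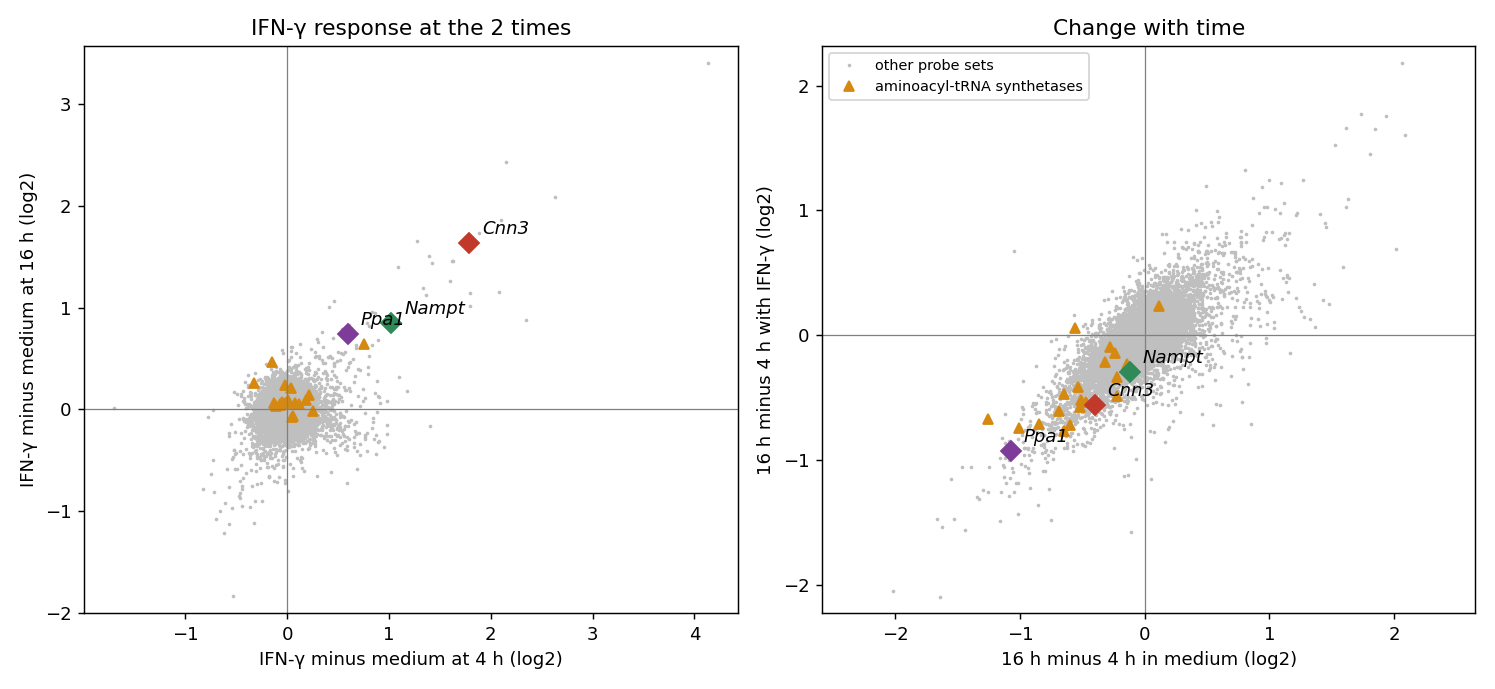
Log2 differences of all 12422 probe sets (grey), the aminoacyl-tRNA synthetase genes (orange triangles) and the 3 genes (diamonds), with IFN-γ minus medium at 4 against 16 hours on the left and 16 minus 4 hours in medium against with IFN-γ on the right, so that no array enters both axes of a panel. On the right, Ppa1 lies at -1.08 and -0.93.

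Apart from the 3 genes themselves, which were left out as candidates, the genes with the pattern most like each over the 8 arrays were found among 853 genes whose highest group mean lay above the antisense median and whose group means spanned at least 0.5 on the log2 scale. For Cnn3 they were Cxcl9 (r = 0.995), a chemokine that attracts T cells, the GTPase genes Gbp7 (0.994), Gbp3 (0.987) and Igtp (0.987), which act in defence against intracellular pathogens, and Pkib (0.988), an inhibitor of protein kinase A. For Nampt they were Gbp7 (0.997), Gbp3 (0.991) and Igtp (0.986) again, Pkib (0.989), and Ifi47 (0.993), a further interferon-inducible GTPase. Among these candidates both genes share 4 of their 5 nearest patterns, and the r of 0.991 between Cnn3 and Nampt themselves is as high as or higher than that of 3 of the 5 in each list. The log2 difference of Pkib with IFN-γ was 0.67 at 4 hours and 0.61 at 16 hours, and that of the GTPases was 1.33 to 1.63 at 4 hours.

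Ppa1 had other neighbours. They were Gm9706 (r = 0.984), Procr (0.983), the endothelial receptor for protein C, Glipr2 (0.979), Stat3 (0.974), a transcription factor of cytokine signalling, and Gpd2 (0.967), the mitochondrial glycerol phosphate dehydrogenase. The probe sets of Gm9706 and Gpd2 carry the suffix f, as that of Cnn3 does, and which transcripts they match was not tested. Procr, whose highest group mean was 196 in intensity, had IFN-γ differences of 0.81 and 0.82 at 4 and 16 hours, and 16-minus-4-hour differences of -1.32 with IFN-γ and -1.33 in medium. Stat3 had the same signs with smaller values, 0.28 and 0.29 for IFN-γ and -0.31 and -0.32 for time. These correlations are over 8 arrays in 4 groups and are given as a description.

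**Figure D4:**
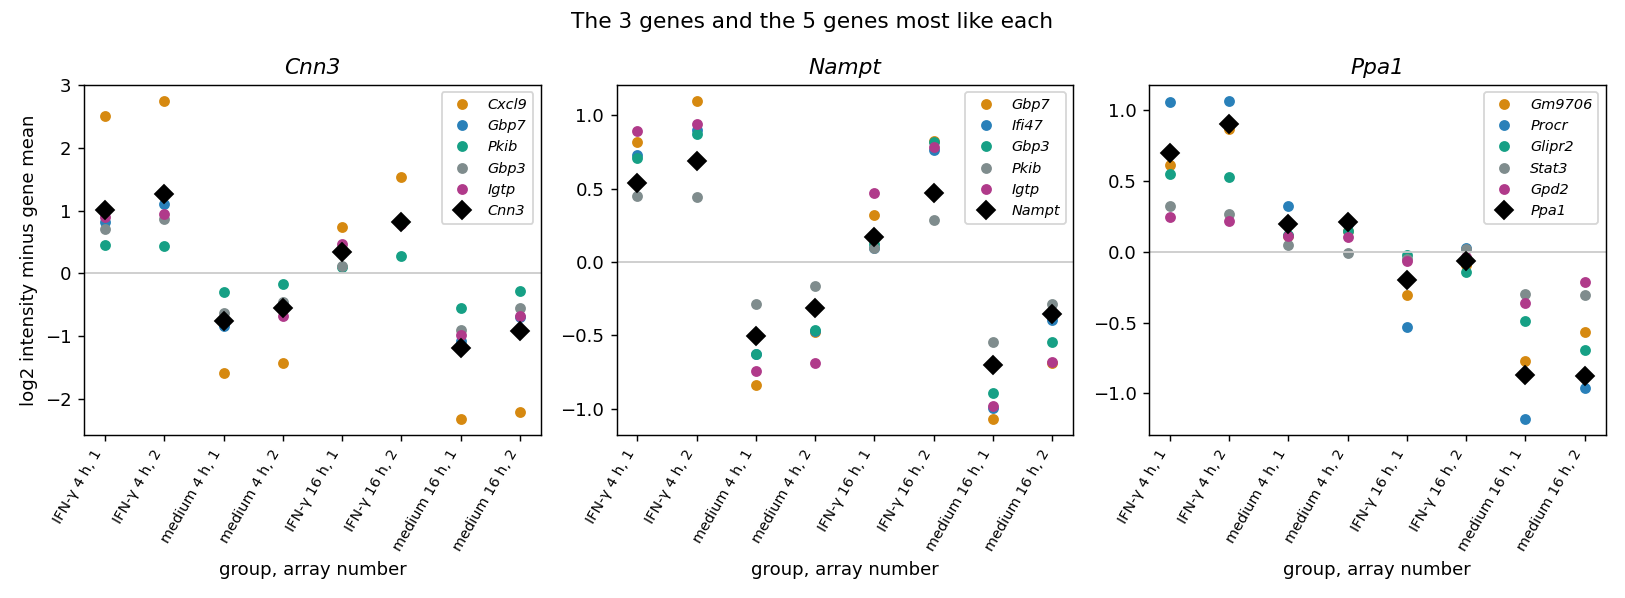
Log2 intensity on each array minus the gene's own mean over the 8 arrays, for Cnn3, Nampt and Ppa1 (black diamonds) and the 5 genes most like each (coloured points). Cxcl9 spans a wider range than Cnn3, but its medium arrays, at intensities of 18.4 to 34.05, lay below the antisense median of the same array, so its low values are uncertain. The genes like Ppa1 are lower at 16 hours in both conditions.

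Pnp was the one measured gene on the list of NAD synthesis that passed with IFN-γ by limma, at 4 hours only. Of 23 genes on that list 9 were measured, and Naprt, Nadsyn1 and Qprt were not among them. Of the 9, 1 rose with IFN-γ at 4 hours and none at 16 hours by limma, where 0.258% and 0.161% of probe sets rose. The median log2 difference of the list was -0.02 at 4 hours and -0.03 at 16 hours, against -0.01 and 0 over all probe sets. At an unadjusted p under 0.05 there were Pnp at 4 hours, and Pnp and Nnt, the mitochondrial transhydrogenase, at 16 hours, where Nnt was lower (-0.25). Pnp is purine nucleoside phosphorylase, which frees nicotinamide from its riboside among other reactions. Its intensity was 1052 and 1052 with IFN-γ at 4 hours, against 579 and 563 in medium, a log2 difference of 0.88 (SE 0.11, limma adjusted p = 0.0137). At 16 hours it read 1001 and 1135 with IFN-γ, against 844 and 908 in medium, a difference of 0.28 (limma adjusted p of 1). Pnp also rose with time in medium, by 0.62 (limma adjusted p = 0.0183). Neither call on Pnp held when any 1 array of its own comparison was left out (adjusted p of 0.0708 to 0.241 by limma), which leaves 1 array in a group.

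The other 8 measured genes of the list had IFN-γ differences between -0.25 and 0.08. Nadk, which phosphorylates NAD, differed by 0.03 and 0.02 at 4 and 16 hours, Nmrk1, the nicotinamide riboside kinase, by -0.24 and -0.10, and Nnmt, which methylates nicotinamide, by 0.04 and -0.03. Ido1, the enzyme that begins tryptophan breakdown and so the other route to NAD, differed by -0.08 and -0.02 on the brighter of its 2 probe sets, which read 47.3 to 64.5, near the antisense medians, so no change can be read there. The dimmer Ido1 probe set gave 0.71 and 0.03. Of 28 listed NAD-consuming enzymes 12 were measured, and Cd38, Parp9, Parp10, Parp12 and Parp14 were not among them. None of the 12 passed with IFN-γ at either time by limma, also with the replicate block. Their medians were -0.01 and -0.05, and 0 and 1 had an unadjusted p under 0.05. The smallest p on that list was that of Bst1, a cell surface enzyme that cleaves NAD, 0.42 at 16 hours (unadjusted p = 0.00473, limma adjusted p = 0.515), at intensities of 7.90 and 8.46 with IFN-γ against 6.05 and 6.21 in medium, far below the antisense median. Sirt1, an NAD-dependent deacetylase, differed by 0.20 at 4 hours (limma adjusted p of 1), at intensities of 16.4 to 20.5, also below that median. With time, Bst1 (0.45, limma adjusted p = 0.083) and Parp8 (-0.51, limma adjusted p = 0.231), a PARP family member, passed with IFN-γ only with the replicate block (0.0168 and 0.0328), and so did Nmrk1 in medium (-0.36, limma adjusted p = 0.165, and 0.0245 with the block).

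Of 7 other measured genes of pyrophosphate and phosphate handling, none passed with IFN-γ or with time by limma, also with the replicate block, and 0 had an unadjusted p under 0.05. Their IFN-γ differences lay between -0.23 and 0.13 at 4 hours and between -0.22 and 0.05 at 16 hours. Ppa2, the mitochondrial pyrophosphatase, read 16.3 to 19.5 over the 8 arrays, below the antisense median, so a change cannot be read. Slc20a1, a phosphate importer, differed by -0.23 at 4 hours and Prune1, a phosphatase of short polyphosphates, by -0.14 (limma adjusted p of 1 for both).

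Several aminoacyl-tRNA synthetases, which charge tRNAs and release pyrophosphate, fell with time, as Ppa1 did. Of 19 measured, 3 fell between 4 and 16 hours with IFN-γ and 7 in medium, and none rose by limma, where 1.30% and 2.57% of probe sets fell. With the replicate block 12 fell in each condition, where 6.94% and 8.09% of probe sets fell. The list's median log2 difference was -0.48 with IFN-γ and -0.52 in medium, against 0.05 over all probe sets in both. Gars, the glycyl-tRNA synthetase, read 142 and 177 at 16 hours with IFN-γ, against 258 and 274 at 4 hours, a difference of -0.75 in log2 (limma adjusted p = 0.0338). In medium it read 123 and 146, against 255 and 284, a difference of -1.01 (limma adjusted p = 0.00604). Lars, the leucyl-tRNA synthetase, fell by 0.61 with IFN-γ (limma adjusted p = 0.0351) and by 0.69 in medium (limma adjusted p = 0.0135), and Cars, for cysteine, changed by -0.52 and -0.51. Aars, for alanine, changed by -0.65 and Mars1, for methionine, by -0.54 in medium. Eprs, for glutamate and proline, fell by 1.26 in medium, but read 24.4 and 31.4 there at 16 hours, below the antisense median, and with values raised to that median the difference was -0.26. Kars, for lysine, differed by 0.23 with IFN-γ and 0.11 in medium, the highest of the list. Of the 7 in medium, the count became 0 when either 4-hour medium array was left out, 4 without either IFN-γ array of that time, 1 without 16-hour medium array 1 and 4 without array 2. It was 10 without either 16-hour IFN-γ array. The count of 3 with IFN-γ became 0 when any 1 of the 4-hour arrays was left out. Of the 16-hour IFN-γ arrays, leaving out the first gave 0 and the second 8, and it was 2 without either 16-hour medium array. It was also 0 in a fit of the 4 IFN-γ arrays alone, and 8 with a floor at the antisense median.

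With IFN-γ against medium, 1 of the 19 synthetases passed, at 4 hours, and none at 16 hours by limma, where 0.258% and 0.161% of probe sets rose. At an unadjusted p under 0.05 there were 2 at 16 hours, among 426 of the 12422 probe sets. The one that passed was Wars, the tryptophanyl-tRNA synthetase, a known IFN-γ target. On its brightest probe set Wars read 534 and 449 with IFN-γ at 4 hours, against 288 and 294 in medium, a log2 difference of 0.75 (SE 0.12, limma adjusted p = 0.0436). At 16 hours it read 381 and 397, against 251 and 247, a difference of 0.64 (limma adjusted p = 0.0922), which passed with the replicate block (adjusted p = 0.0155). The 2 other probe sets of Wars gave 0.55 and 1.60 at 4 hours and 0.55 and 1.26 at 16 hours. The call at 4 hours was lost with median centring (adjusted p = 0.0507), without any 1 of the 4-hour arrays or without either 16-hour medium array (0.0678 to 0.556 by limma), and its adjusted p ran from 0.00309 to 0.556 over all alternatives. The values of the brightest set are near the values of Ppa1, 0.59 and 0.74. With time Wars differed by -0.33 with IFN-γ and -0.23 in medium (limma adjusted p = 0.216 and 0.389), against -0.93 and -1.08 for Ppa1. The medians of the list for IFN-γ were 0.01 and 0.07.

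The 2 other measured calponins had IFN-γ differences between -0.09 and 0.04. Cnn2, the calponin usual in leukocytes, read 490 and 428 with IFN-γ at 4 hours, against 501 and 460 in medium, a log2 difference of -0.07 (SE 0.16). At 16 hours Cnn2 read 274 and 378, against 341 and 311, a difference of -0.02. Cnn1, the calponin of smooth muscle, read 30.8 to 37.2 on all arrays, below the antisense median. Of 16 measured genes of the calponin family and of smooth muscle actin regulation, none passed with IFN-γ by limma, also with the replicate block (1 at 4 hours and 0 at 16 hours with an unadjusted p under 0.05), and their differences lay between -0.24 and 0.09 at 4 hours and -0.16 and 0.23 at 16 hours. The lowest at 4 hours was Tpm1, a tropomyosin (-0.24, limma adjusted p of 1), and the highest at 16 hours Myh11, the smooth muscle myosin (0.23, limma adjusted p of 1). With time, Tagln2, a calponin-related protein of leukocytes, fell by 0.59 in medium (limma adjusted p = 0.0473), to 982 and 909 at 16 hours, against 1568 and 1287 at 4 hours. It passed under 8 of 17 alternatives, and not with quantile normalization (limma adjusted p = 0.161) or without any 1 array of medium (0.119 to 0.376). With the replicate block 4 of the 16 fell in medium and 2 with IFN-γ, where 8.09% and 6.94% of probe sets fell. Cnn2 was 1 of the 4 (log2 difference -0.56, limma adjusted p = 0.0941, and 0.0327 with the block).

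Markers of stroma, smooth muscle and endothelium were set beside Cnn3. Of 10 stromal and smooth muscle markers, 3 were above the antisense median on both arrays of each group, namely Col1a1, Col1a2 and Pdgfra, at group means of 113 to 167. The smooth muscle genes Acta2, Myh11 and Tagln were not, with group means of 9.12 to 46.7, nor were Col3a1, Sparc, Dcn and Pdgfrb. The summed intensity of the 10 was 489 and 506 with IFN-γ at 4 hours, against 503 and 485 in medium. At 16 hours it was 645 and 508 with IFN-γ, against 593 and 528 in medium. Of 6 endothelial markers, 3 or 4 were above it, with sums of 635 and 599 with IFN-γ at 4 hours, against 637 and 590 in medium. At 16 hours the endothelial sums were 818 and 740 with IFN-γ, against 756 and 658 in medium, higher with IFN-γ for both array numbers although the groups overlapped. Of these markers only Eng was clearly higher then, at group means of 542 with IFN-γ against 466 in medium. Pecam1 was at 98.8 in both, and Kdr and Tek differed little. Vwf (64.1 against 68.8) and Cdh5 were lower with IFN-γ. The part of these markers in the Cnn3 difference was not tested.

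Of 37 measured genes of the leukocyte actin cytoskeleton, none passed with IFN-γ by limma, also with the replicate block (3 at 4 hours and 1 at 16 hours with an unadjusted p under 0.05), and the medians were -0.08 at 4 hours and -0.05 at 16 hours. With time, 3 fell and 1 rose with IFN-γ, and 4 fell and 1 rose in medium, where 1.30% and 0.821% of probe sets fell and rose with IFN-γ and 2.57% and 1.71% in medium. With the replicate block 5 fell and 2 rose with IFN-γ, and 7 fell and 2 rose in medium, where 6.94% and 3.20% of probe sets fell and rose with IFN-γ and 8.09% and 4.52% in medium. Fscn1, which bundles actin in the protrusions of maturing dendritic cells, read 1503 and 1485 at 16 hours with IFN-γ, against 3121 and 3101 at 4 hours, a difference of -1.06 (limma adjusted p = 0.0015). In medium it read 1465 and 1479, against 4116 and 4013, a difference of -1.46 (limma adjusted p = 0.000245). Marcksl1, a membrane protein that binds actin, changed by -1.26 with IFN-γ and -1.15 in medium, and Dstn, which severs actin filaments, by -0.78 and -0.67. Myh9, the non-muscle myosin, fell by 0.54 in medium. Gsn, the filament-severing gelsolin, rose by 1.02 with IFN-γ and 0.95 in medium. With IFN-γ against medium at 4 hours, Gsn differed by -0.53 and Fscn1 by -0.39 (limma adjusted p = 0.396 and 0.316), the opposite sign to Cnn3.

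**Figure D5:**
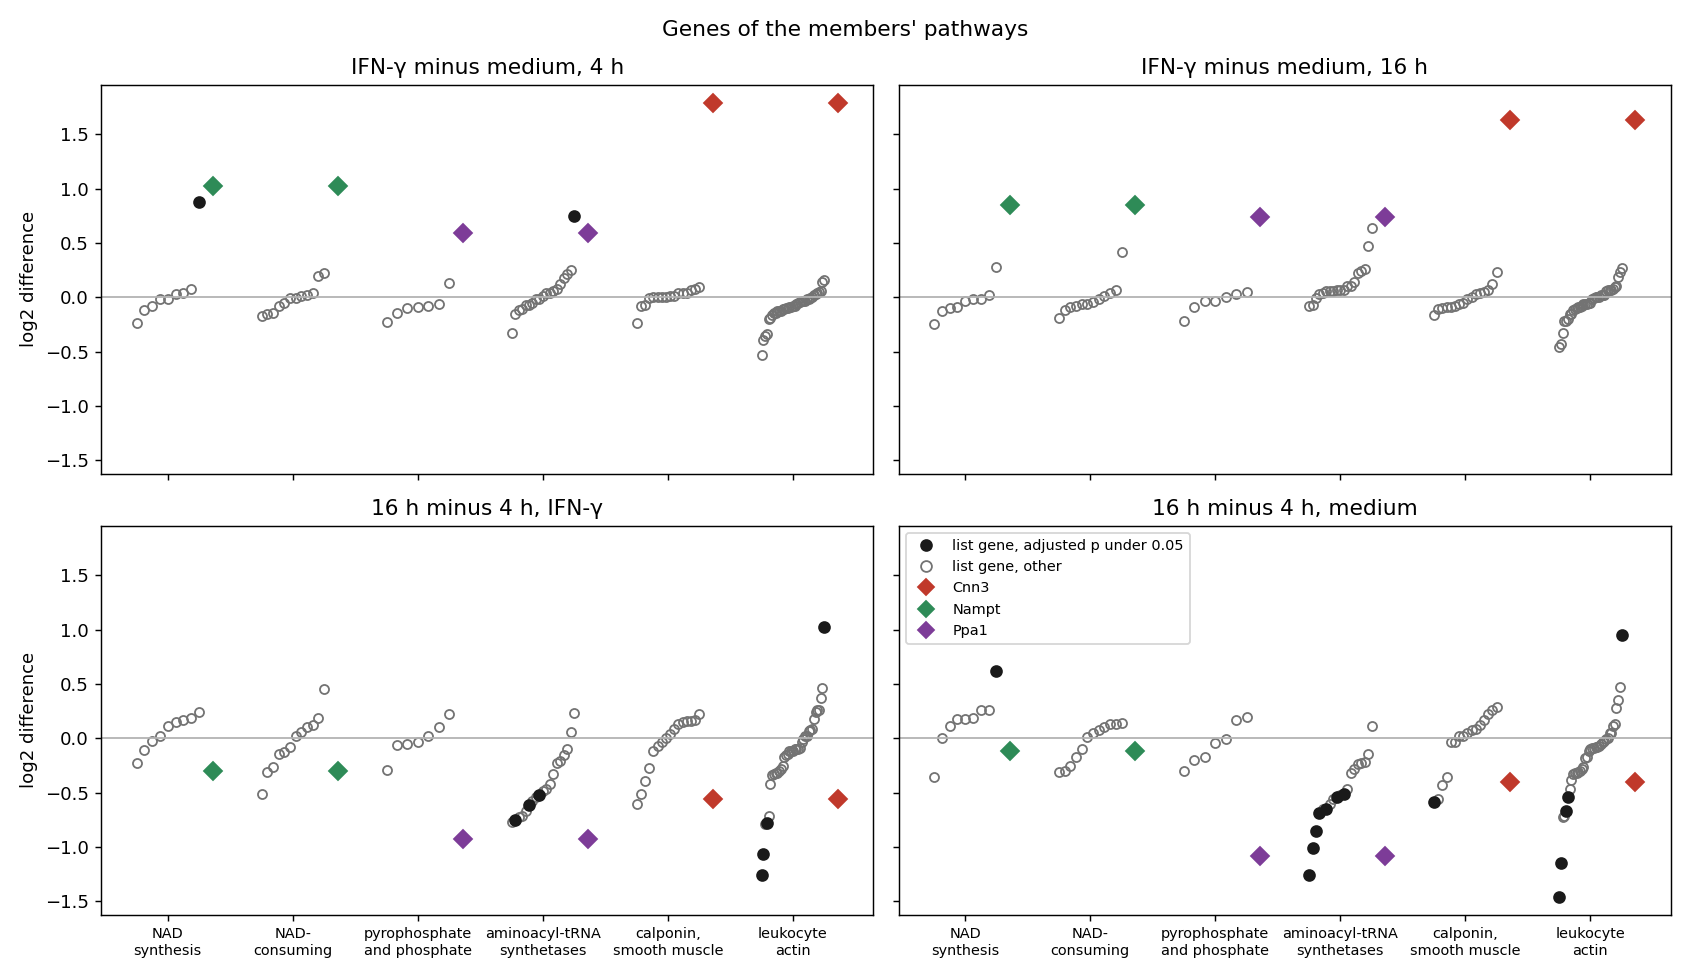
Log2 differences of every measured gene of the 6 lists in 4 comparisons, filled where the adjusted p was under 0.05 and open otherwise, with Nampt, Ppa1 or Cnn3 as a diamond beside the lists of its own pathway. With IFN-γ, 2 list genes passed at 4 hours, Pnp (0.88) and Wars (0.75), and 0 at 16 hours, while the aminoacyl-tRNA synthetases lie mostly below 0 with time.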

How the data were processed

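RNA of 8 samples was measured on Affymetrix MG-U74Av2 arrays, and groups and replicate numbers came from the sample titles. The authors deposited intensity summaries per probe set, made with RMA per the submitters' processing notes; its version and options are not given in the sources used here. The values run from 2.65 to 12523.46, so they are linear, and log2 was taken with no pseudocount. The 66 control sets among 12488 were not tested. Names came from the platform annotation, updated by gene number through RefSeq (GRCm38.p6): 10833 probe sets had 1 symbol, 396 several and 1193 none listed. A gene was represented by its brightest probe set.

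Differences were fitted with limma 3.58.1 in R 4.3.3 as 4 group means over all 8 arrays, two-sided, adjusted by Benjamini-Hochberg over 12422 probe sets and called at 0.05; the number of arrays limits the precision. The script was tested on simulated data. The genes, the 6 pathway lists and the marker lists were chosen with earlier results of these data known. List genes are named where they passed in a comparison, up to 6 each by smallest p, or else the 2 with the smallest p for IFN-γ, and a few others were named after their values were seen: Kars, Nadk, Nnt, Parp8, Nmrk1, Nnmt, Ido1, Ppa2, Cnn1 and Cnn2. The difference between arrays 2 and 1 correlated between groups with r of 0.367 to 0.740 in all 6 pairs of groups, so the numbers were taken to pair the arrays; no label states this pairing. Values with that block are given where they change a call on the 3 genes or the count of a list. Alternatives were other normalizations, filters, priors, a pseudocount of 32, a floor at the antisense median, the block and each array left out.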

Additional observations from a re-analysis of the deposited data

How the results depend on the processing

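The IFN-γ differences of the 3 genes kept their sign under all 17 alternatives. Adding 32 before log2 gave 1.39 and 1.17 for Cnn3 at 4 and 16 hours and 0.64 for Ppa1 at 16 hours, by its own construction. A floor at the antisense median gave -0.41 for the Cnn3 effect at 16 minus 4 hours, which ran from -0.40 to 0.08 with an array left out, and that of Ppa1 from 0.04 to 0.25. Cnn3 passed for time with the replicate block (-0.56 with IFN-γ and -0.40 in medium), and with IFN-γ also with the floor (-0.56) and without array 2 of IFN-γ at 16 hours (range with an array left out -0.80 to -0.32). Nampt in medium ran from -0.30 to 0.06. The fall of Ppa1 with IFN-γ ran from -1.03 to -0.83. A fit without both 16-hour number 1 arrays, chosen after seeing the data, gave 0.06 for Nampt in medium and 0.81 for Ppa1 with IFN-γ at 16 hours.

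Counts of calls moved more, and the cause was not tested. For IFN-γ at 4 hours, 32 probe sets became 93 in a fit of the 4 arrays compared, 157 with the block, 76 with the floor, 93 without both number 1 arrays and 8 to 67 with an array left out; list genes (2) became 1 with median centring and 0 to 2. At 16 hours 32 became 7 in the fit of 4 arrays, 105 with the block, 52 with the floor and 10 to 38 with an array left out; list genes (0) became 1 with the block and 1 with the floor. For the difference of IFN-γ effects 0 by limma (353 at an unadjusted p under 0.05) became 30 with the block and 19 with the floor. For time in medium 531 became 1567 with the block and 73 to 923, and list genes (14) became 27 and 1 to 21. For time with IFN-γ 263 became 120 in the fit of 4 arrays, 1259 with the block, 481 with the floor and 27 to 708; list genes (7) became 2, 23 and 15, and 1 to 18. The block changed no call of Nampt or Ppa1. Of 22 list results named as passing, 2, both of Fscn1, passed under every alternative. Each gene has 1 probe set, so averaging probe sets could not be run.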

Other observations

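On the linear scale the IFN-γ difference of Ppa1 was lower at 16 hours, while the log2 value was not. The linear difference was 179 units of mean intensity at 4 hours and 111 at 16 hours, while the log2 difference was 0.59 at 4 hours and 0.74 at 16 hours. For Cnn3 the linear difference was 154 units at 4 hours and 101 at 16 hours, and for Nampt 195 and 139, with log2 differences that were also lower at 16 hours. The order of the 2 log2 values of Ppa1 is not resolved, since their difference was 0.14 with a 95% interval of -0.22 to 0.51, and the gene was chosen on these values.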
